A study of Arabidopsis thaliana with 6 samples.

Results

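The genes described here are 9 genes of the main route of auxin synthesis in Arabidopsis thaliana, taken by locus tag from the deposited tables: TAA1 (AT1G70560), TAR2 (AT4G24670), YUC1 (AT4G32540), YUC2 (AT4G13260), YUC3 (AT1G04610), YUC5 (AT5G43890), YUC6 (AT5G25620), YUC8 (AT4G28720) and YUC9 (AT1G04180). All 9 were found among the 33518 genes of the table that sets PRE1-Ox/IBH1-Ox against IBH1-Ox. Only YUC3 was found among the 1547 genes of the filtered table that sets IBH1-Ox against wild type. Total RNA of whole seedlings of ecotype Col-0, grown for 5 days in constant light on half-strength MS medium, was sequenced in 6 libraries. PRE1-Ox/IBH1-Ox (the double line, 2 libraries) carried 35S:IBH1-myc and 35S:PRE1-YFP, IBH1-Ox (2 libraries) carried 35S:IBH1-myc alone, and wild type (2 libraries) carried neither. The 35S promoter is known to be active in most plant tissues, the tables hold whole-seedling levels only, and the labels do not say how many independent transgenic lines or seedling cultures stand behind a group. The IBH1 protein, of the helix-loop-helix class, acts as a brake on elongation growth, and PRE1, a short member of that class, binds IBH1 and favours elongation.

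Indole-3-acetic acid (IAA), the main natural auxin, is made from tryptophan in a pair of steps. The aminotransferases TAA1 and TAR2 turn tryptophan into indole-3-pyruvic acid, and the YUCCA (YUC) flavin-containing monooxygenases turn indole-3-pyruvic acid into IAA, a step held to limit the rate. In seedlings the YUC genes are known to act in overlapping sets, with YUC1, YUC2 and YUC6 mostly linked to aerial organs and YUC3, YUC5, YUC8 and YUC9 to roots and to growth responses to shade and warmth. Several are known targets of PIF factors, basic helix-loop-helix proteins that promote elongation.

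The 7 YUC proteins, translated from the RefSeq coding sequences (TAIR10.1), were 415 to 437 residues long and shared 51.0% to 83.8% of aligned residues in the 21 pairs. YUC3, YUC5, YUC8 and YUC9 formed the closest set, at 65.3% to 83.8% in 6 pairs, with YUC5 and YUC9 the closest pair. Each YUC protein held the letters GxGxxG (x being any residue) at 2 places, the pattern known from FAD and NADPH binding in this enzyme family. TAA1 (391 residues) and TAR2 (440 residues) shared 50.9% of residues. The stretch of 60 coding bases around the first GxGxxG is printed for the 4 most alike YUC genes, 5′ to 3′ on the coding strand, because their transcript values differ although their proteins are alike. Capitals mark bases that differ from YUC3 at the same place.
YUC3 (chr1:1279629-1279688, plus strand): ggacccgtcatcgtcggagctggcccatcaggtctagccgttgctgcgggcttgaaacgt
YUC8 (chr4:14192757-14192816, plus strand): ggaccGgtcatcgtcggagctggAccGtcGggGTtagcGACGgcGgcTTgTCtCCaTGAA
YUC5 (chr5:17650003-17650062, minus strand): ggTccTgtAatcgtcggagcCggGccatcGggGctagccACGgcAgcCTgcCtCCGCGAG
YUC9 (chr1:1104692-1104751, plus strand): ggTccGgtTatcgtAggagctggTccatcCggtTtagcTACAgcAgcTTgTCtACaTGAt
YUC8, YUC5 and YUC9 each differed from YUC3 at 21 of the 60 bases. YUC1, YUC2 and YUC6, outside this set, differed from YUC3 at 20, 23 and 21 bases, so the set was not closer in this stretch. Across whole transcripts the longest exact stretch shared by any YUC pair was 42 bases, in YUC5 and YUC9, and it was 17 to 23 bases in the other pairs of these 4 genes. The read length and the handling of multiple alignments per gene are not given in the sources used here, so reads in such shared stretches could be assigned with uncertainty. No annotated gene overlapped any of the 9 genes.

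For YUC3, YUC8 and YUC9, chosen after their values were seen for the size of their change between the double line and IBH1-Ox, the 100 bases before the annotated gene start are printed. Capitals mark the letters CACATG, the PBE-box known to be bound by PIF factors.
YUC3 (chr1:1279251-1279350, plus strand): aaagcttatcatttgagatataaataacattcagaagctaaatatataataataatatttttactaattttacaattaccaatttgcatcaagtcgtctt
YUC8 (chr4:14192469-14192568, plus strand): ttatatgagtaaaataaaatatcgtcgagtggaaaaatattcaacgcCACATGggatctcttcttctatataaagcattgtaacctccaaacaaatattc
YUC9 (chr1:1104393-1104492, plus strand): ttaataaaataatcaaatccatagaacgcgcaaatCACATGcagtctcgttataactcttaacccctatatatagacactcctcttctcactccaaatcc
In a window from 250 bases before to 50 bases after the start, CACATG on either strand was found in 5 of the 9 genes (YUC2, YUC5, YUC6, YUC8 and YUC9) and in 12.9% of 27443 windows of protein-coding genes. The auxin response element TGTCTC was found in TAR2 and YUC2, 2 of 9, against 14.2% of all windows. The G-box CACGTG (7.68% of all windows) and the brassinosteroid response element core CGTGCG (1.96%) were found in none of the 9. None of these 4 motifs contains another, and a match is a description of the sequence only.

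The deposited tables hold means per group of the authors' normalized counts, and the whole reads of single libraries were recovered from them. Each library's recovered reads were divided by its size factor, inferred from the spacing of the authors' group means, to give normalized counts. The library of larger size factor is given first in each group. In the second table the libraries held between 7979224 and 13918858 recovered reads, counted over means that could be split. There 28 genes, among them RBCS1A and RCA, did not split in at least 1 group. The higher group mean of each was above 23204. These genes were left out of limma-voom, so the totals understate library depth. The overexpressed genes followed the labels: PRE1 stood at 8465 and 8344 normalized counts in the double line, against 125 and 135 in IBH1-Ox, and IBH1 at 16541 and 16523 in the double line, against 10551 and 11629 in IBH1-Ox. IBH1 was thus itself higher in the double line (log2 ratio 0.58, adjusted p = 3.96e-08 in the authors' deposited table). Of 7 root markers 1 was higher (RCI3, log2 ratio 0.76), 1 lower (TIP2;3, -1.38) and 5 not called in the authors' deposited table. Their summed authors' means were 82552 in the double line and 82030 in IBH1-Ox. PYK10 alone held 77004 and 77232 of these, so the sums mostly reflect that gene. Of 6 shoot markers 4 were higher and 2 lower, LHCB4.1 at a log2 ratio of -0.80 and PSAD1 at -0.14. At the same threshold 12.7% of all tested genes were higher and 9.78% lower. The summed shoot means were 737265 in the double line and 587865 in IBH1-Ox. RBCS1A (338153 and 271558) and RCA (197610 and 137743) made up most of them. No marker was at 0 in either group, and the part of organ proportions in the results was not tested. In whole seedlings fewer cells of a type and less RNA per cell cannot be told apart. Nothing in the labels says that libraries of a group come from separate cultures, so the p-values reflect variation among these libraries alone, and that variation may be technical.

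The second table asks which transcripts differ when PRE1 is overexpressed on top of IBH1. In it YUC3 was lower in the double line, TAR2 was lower by a smaller amount, and YUC9 was higher. These 3 of 9 genes passed an adjusted p below 0.05 in the authors' deposited table, where 22.5% of 24451 tested genes did. In the lower direction 2 of 9 passed against 9.78% of all genes, and in the higher direction 1 of 9 against 12.7%. The median log2 ratio was -0.42 over the 9 genes and -0.02 over all tested genes. When the recovered reads were fitted with limma-voom, which could test the 8 genes with a mean of 10 or more, 5 passed, with TAA1 and YUC8 added as lower, where 38.1% of 19994 genes passed. In 8 of 8 the libraries of the groups did not overlap, as was so for 68.9% of all genes in that fit.

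**Figure D1:**
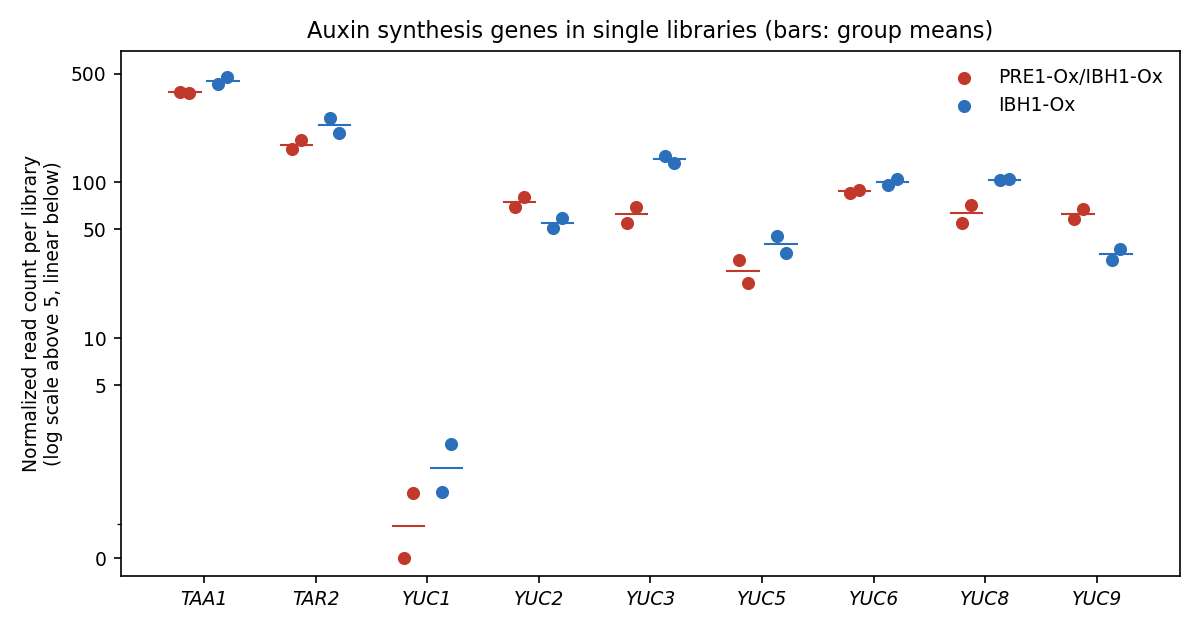
Normalized read count of each of the 9 genes in single libraries (points) with group means (bars), double line left and IBH1-Ox right for each gene; the vertical axis is logarithmic above 5 and linear below. YUC3 lies at 55.2 and 69.5 in the double line and at 148 and 134 in IBH1-Ox, while YUC9 lies at 58.4 and 67.6 against 31.6 and 37.4.

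The aminotransferases carry out the first step. TAA1 (chr1:26604855-26607652, plus strand, 5 exons) is the main enzyme of this step in seedlings and is needed for shade-induced elongation. It had 379 and 377 normalized counts in the double line, against 426 and 472 in IBH1-Ox. Both double-line libraries lay below both IBH1-Ox libraries, by a margin comparable to the gap between the IBH1-Ox libraries. The log2 fold change was -0.24 ± 0.093 (SE, limma-voom, 2 libraries per group, adjusted p = 0.0455), while the authors' deposited table gave an adjusted p of 0.143. Over the fits that left out 1 library the limma-voom adjusted p ran from 0.00925 to 0.214. Of these 4 fits it passed in 1, without the IBH1-Ox library of larger size factor.

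TAR2 (chr4:12727531-12731331, minus strand, 5 exons) encodes an aminotransferase related to TAA1 and is known to overlap with it in function. TAR2 stood at 163 and 186 normalized counts in the double line, against 260 and 208 in IBH1-Ox. The groups did not overlap, but the IBH1-Ox libraries differed from each other more than the nearest libraries of the 2 groups did. Its log2 ratio fell by 0.42 (authors' deposited table, adjusted p = 0.035), and limma-voom gave -0.43 ± 0.14 (adjusted p = 0.0183). Without the IBH1-Ox library of larger size factor the limma-voom value was -0.26 (adjusted p = 0.174), and without the double-line library of larger size factor it was -0.33 (adjusted p = 0.212), so the call rests on those libraries. Summed over TAA1 and TAR2 the normalized counts were 541 and 563 in the double line, against 686 and 681 in IBH1-Ox.

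YUC3 (chr1:1279351-1281618, plus strand, 3 exons) is one of the YUC genes known mainly from roots. Its 35 and 37 reads in the double line gave 55.2 and 69.5 normalized counts, against 148 and 134 from 155 and 122 reads in IBH1-Ox. Both double-line libraries were far below both IBH1-Ox libraries, and the gap between the groups was several times the gap within either. Its log2 ratio was -1.18 (authors' deposited table, adjusted p = 9.69e-06), and limma-voom gave -1.19 ± 0.20 (95% interval -1.60 to -0.78, adjusted p = 4.69e-05). It passed in every fit that left out 1 library, at log2 values from -1.34 to -1.01 and adjusted p from 7.44e-08 to 0.00268.

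YUC8 (chr4:14192569-14194302, plus strand, 1 exon), known to be induced by warmth and shade through PIF factors, had the next lowest ratio among the genes with more than a few reads. It was at 55.2 and 71.4 normalized counts in the double line, against 103 and 105 in IBH1-Ox. The IBH1-Ox libraries were nearly equal and both double-line libraries lay below them. The authors' deposited table gave a log2 ratio of -0.71 with an adjusted p of 0.0957, which did not pass, while limma-voom gave -0.72 ± 0.20 (adjusted p = 0.00689). In limma-voom it passed in 3 of the 4 fits that left out 1 library, and not without the double-line library of larger size factor (adjusted p = 0.182).

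YUC9 (chr1:1104493-1106241, plus strand, 2 exons), like YUC8 known to respond to shade, went the other way. The double-line libraries held 58.4 and 67.6 normalized counts from 37 and 36 reads, against 31.6 and 37.4 from 33 and 34 reads in IBH1-Ox. The groups were well apart, although the number of reads behind each value was small and nearly the same in all 4 libraries, whose depths differ. Its log2 ratio was 0.87 (authors' deposited table, adjusted p = 0.0387), and limma-voom gave 0.87 ± 0.25 (adjusted p = 0.00797). Without the double-line library of smaller size factor the limma-voom adjusted p was 0.0721, and without the IBH1-Ox library of larger size factor it was 0.0519, with log2 values of 0.77 and 0.74.

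YUC2 (chr4:7721487-7724070, minus strand, 3 exons), known from leaves and flowers, was at 69.4 and 80.8 normalized counts in the double line, against 50.8 and 59.5 in IBH1-Ox. Its log2 fold change of 0.45 ± 0.21 (limma-voom, 95% interval 0.00 to 0.89) did not pass in limma-voom (adjusted p = 0.105) or in the authors' deposited table (0.307). YUC5 (chr5:17648576-17650375, minus strand, 1 exon), the closest relative of YUC9 by protein, had 31.6 and 22.5 normalized counts in the double line, against 45.0 and 35.2 in IBH1-Ox. Its libraries differed within both groups, and the log2 fold change was -0.55 ± 0.31 (limma-voom, 95% interval -1.18 to 0.09, adjusted p = 0.173). YUC6 (chr5:8934941-8938768, minus strand, 4 exons), known from leaves and leaf ageing, stood at 85.2 and 90.1 in the double line, against 96.8 and 105 in IBH1-Ox. Its log2 fold change was -0.19 ± 0.18 (limma-voom, 95% interval -0.56 to 0.18, adjusted p = 0.423). For YUC2, YUC5 and YUC6 these intervals include 0 or end at it, and none of them shows that the gene was equal in both groups.

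YUC1 (chr4:15700829-15703000, plus strand, 4 exons), known from embryo and flower development, was close to undetected. It had 0 and 1 reads in the double line, against 2 and 3 in IBH1-Ox. The ratio of pooled normalized reads was 0.335 with an exact 95% counting interval from 0.00708 to 2.99 (Clopper-Pearson), so no difference was detectable at this depth. Intervals of this kind cover counting error only.

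**Figure D2:**
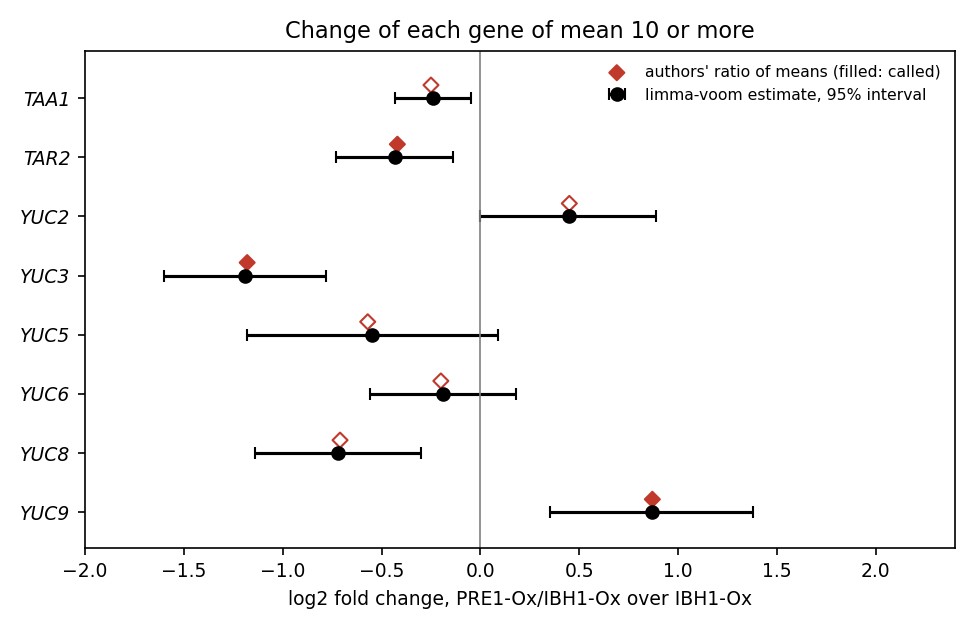
log2 fold change of the double line over IBH1-Ox for the 8 genes with a mean of 10 or more: black points are limma-voom estimates with 95% intervals and diamonds the log2 of the authors' ratio of means, filled where it passed an adjusted p below 0.05. YUC3 at -1.19 and YUC9 at 0.87 lie farthest from 0 in opposite directions, and the intervals of YUC5 and YUC6 cross 0.

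Levels of different genes were compared as normalized reads per kilobase of exon. In the double line TAA1 was the highest at 244 and TAR2 next at 75.4, both apart from their neighbours. YUC9 (38.2), YUC6 (36.9), YUC8 (36.5), YUC3 (35.2) and YUC2 (34.8 reads per kilobase) followed in the double line, and each of these neighbours overlapped the next in its libraries. In IBH1-Ox the order was TAA1 (290), TAR2 (101), YUC3 (79.7), YUC8 (59.7) and YUC6 (42.4 reads per kilobase), with no overlap between neighbours. YUC2 (25.6), YUC5 (22.3) and YUC9 (20.9 reads per kilobase) came next in IBH1-Ox and overlapped each other as neighbours. YUC5 (15.0 in the double line) and YUC1 (0.645 in the double line, 1.79 in IBH1-Ox) completed the order. The 5 YUC genes that lay closest together in the double line, at 34.8 to 38.2 reads per kilobase, were spread from 20.9 to 79.7 in IBH1-Ox. They are grouped here by their double-line levels. YUC5 lay inside the same IBH1-Ox range, at 22.3, but was apart from them in the double line, at 15.0.

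**Figure D3:**
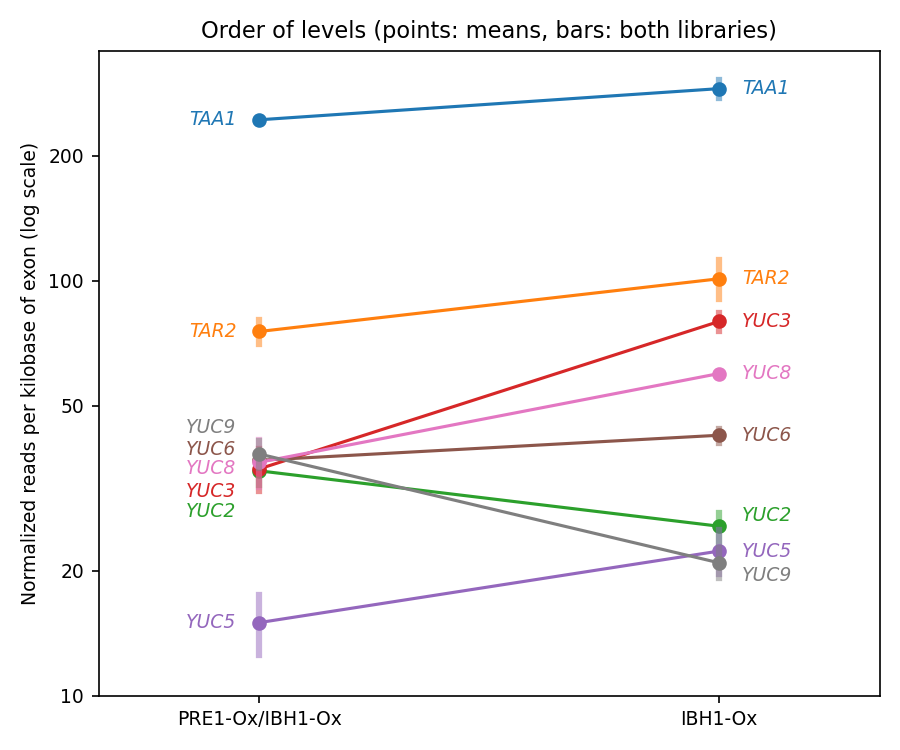
Level of each gene as normalized reads per kilobase of exon on a logarithmic axis, double line left and IBH1-Ox right; points are group means, thick bars span both libraries, and YUC1 is left out because it had at most 3 reads in a library. YUC9, YUC6, YUC8, YUC3 and YUC2 lie at 34.8 to 38.2 in the double line, while YUC3 is at 79.7 and YUC9 at 20.9 in IBH1-Ox.

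Summed over the 7 YUC genes the normalized counts were 355 and 404 in the double line, against 477 and 479 in IBH1-Ox. With 2 libraries against 2 an exact permutation test cannot go below a two-sided p of 0.333, so the sum is given without a test. YUC3 held 15.6% (95% Clopper-Pearson interval 11.1 to 21.0) and 17.2% (12.4 to 22.9) of the YUC reads in the double-line libraries. In the IBH1-Ox libraries it held 31.1% (27.1 to 35.4) and 28% (23.9 to 32.5). YUC9 held 16.4% (11.9 to 21.9) and 16.7% (12 to 22.4) in the double line, against 6.63% (4.6 to 9.18) and 7.82% (5.47 to 10.8) in IBH1-Ox. For both genes, picked for the size of their change, the intervals of the double-line libraries lay apart from those of the IBH1-Ox libraries. These intervals cover counting error within a library only and do not test a difference between the groups. The shares are also tied to each other, since a lower share of some YUC genes raises those of the rest.

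The first table answers which transcripts differ when IBH1 is overexpressed. YUC3 was the 1 member of 9 listed in it, where the 1547 listed genes were 6.24% of 24779 tests, a number implied by the ratios of deposited p-values to adjusted p-values. It had 166 and 150 normalized counts in IBH1-Ox, against 110 and 92.4 in wild type, from 155 and 122 reads and from 138 and 82 reads. Both IBH1-Ox libraries lay above both wild-type libraries. YUC3 was higher by a log2 ratio of 0.65 in IBH1-Ox, a fold of 1.57 with an adjusted p of 0.0115 (authors' deposited table). It passed neither a limit of 2-fold nor an adjusted p below 0.01. Of the 7 root markers, 3 were listed there as higher in IBH1-Ox (TIP2;3, PRP3 and EXPA7, at log2 ratios of 0.75, 0.81 and 0.69) and NRT2.1 as lower (-2.72, with 3 reads in each IBH1-Ox library). Their part in the YUC3 result was not tested. The other 8 members were not listed. All listed genes had an adjusted p of at most 0.0492 and a change of at least 1.5-fold, so absence from the list does not show that a gene was equal in both groups. Both tables share the IBH1-Ox libraries, so the higher value of YUC3 in the first and its lower value in the second are not independent of each other.

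Of the 7 remaining TAR and YUC genes, YUC7 (AT2G33230), the closest relative of YUC3 at 81.4% of aligned residues, was listed in the first table and was lower in the second, the 1 called of 4 tested (9.78% of all tested genes were lower). It had 1 read in each double-line library, giving 1.58 and 1.88 normalized counts, against 21.1 and 18.7 from 22 and 17 reads in IBH1-Ox. Scaled by the size factors, the ratio of pooled reads was 0.0858, with an exact 95% counting interval from 0.01 to 0.332. The adjusted p was 0.00804 in the authors' deposited table and 0.000296 in limma-voom. In the first table YUC7 had 22 and 17 reads in IBH1-Ox, against 0 and 2 reads in wild type. The ratio of pooled reads, scaled by the size factors, was 24 (exact 95% counting interval 6.21 to 205). The ratio of means in the authors' deposited table was 19.7 (adjusted p = 5.34e-05). The longest exact stretch that YUC7 shared with a member was 38 bases, with YUC9, and it was 25 bases with YUC3. YUC4 (log2 ratio 0.45, adjusted p = 0.869), AT1G34040 (-0.20, 0.534) and AT1G34060 (-0.42, 0.675) did not pass in the authors' deposited table, and TAR1, YUC10 and YUC11 had no read in any of the 4 libraries.

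**Figure D4:**
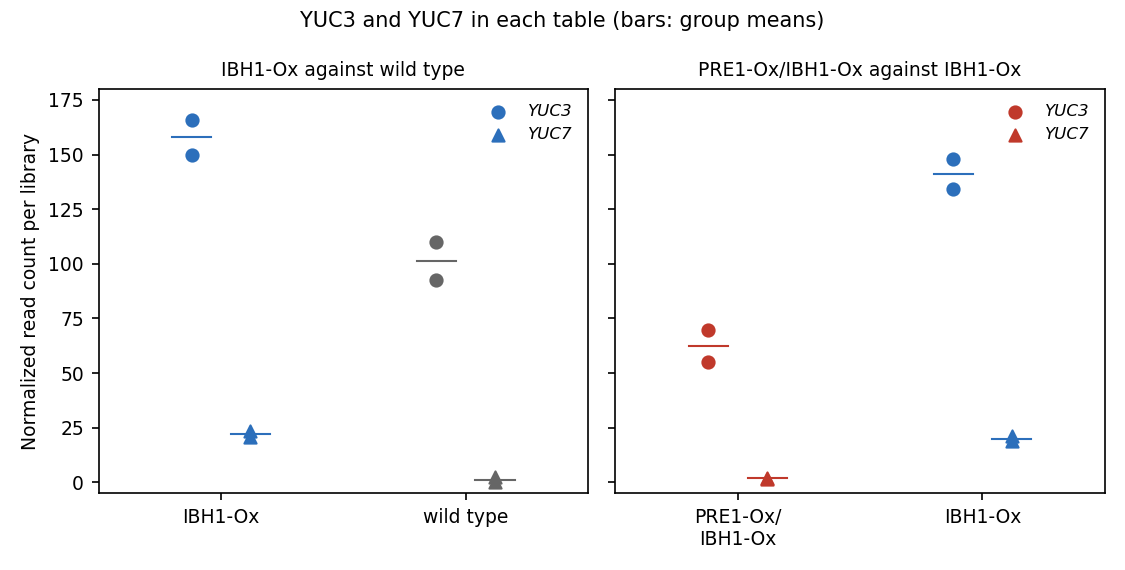
Normalized read count per library (points, group means as bars) of YUC3 (circles) and YUC7 (triangles) in each table, IBH1-Ox left of wild type in the first panel and the double line left of IBH1-Ox in the second; the tables were normalized separately. In both panels the IBH1-Ox libraries are the higher ones, with YUC3 at 166 and 150 against 110 and 92.4 in wild type.

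Of 10 transcription factors known to act on TAA1 or YUC genes 5 were lower in the double line and none higher, 9 having been tested (median log2 ratio -0.51, authors' deposited table). Of all tested genes 9.78% were lower and 12.7% higher. PIF4, which activates YUC8 in warmth, was at 112 and 113 normalized counts in the double line, against 603 and 597 in IBH1-Ox (limma-voom -2.41 ± 0.14, adjusted p = 3.52e-12). PIF5, a close relative, was at 300 and 376 in the double line, against 1521 and 1530 in IBH1-Ox (limma-voom -2.19 ± 0.093, adjusted p = 2.64e-14). RVE1, a morning-phased MYB-like factor known to activate YUC8, had a log2 ratio of -1.01, PIF1 of -0.51 and EIN3, the ethylene response factor, of -0.22 (authors' deposited table, adjusted p = 2.17e-22, 0.000281 and 0.00763). EIN3 did not pass in limma-voom without the double-line library of smaller size factor (adjusted p = 0.0736). PIF3 (-0.27), PIF7 (-0.28), STY1 (-0.87) and LEC2 (1.83) did not pass in the authors' deposited table (adjusted p = 0.0571, 0.128, 0.225 and 0.328). NZZ had no read. In limma-voom PIF3 and PIF7 passed as lower (adjusted p = 0.0116 and 0.0407), so 7 of 8 fitted factors were lower and none higher. In that fit 38.1% of all genes passed in either direction. In the first table PIF4 and PIF7 were listed as lower in IBH1-Ox, at log2 ratios of -0.81 and -0.74 (authors' deposited table, adjusted p = 9.82e-18 and 1.61e-10).

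Upstream of TAA1, 3 of 13 genes of tryptophan synthesis were higher in the double line and none lower (median log2 ratio 0.19, authors' deposited table), where 12.7% of all tested genes were higher and 9.78% lower. These were PAI3, an isomerase of the pathway, at 1.61, TSA1, the alpha subunit of tryptophan synthase, at 0.35, and TSB1, its beta subunit, at 0.33 (adjusted p = 0.00425, 0.000554 and 3.54e-05). PAI3 was at 33.1 and 50.7 normalized counts in the double line, against 22 and 5.51 from 23 and 5 reads in IBH1-Ox. The groups did not overlap, but the IBH1-Ox libraries differed widely. In limma-voom its log2 fold change was 0.87 (adjusted p = 0.0569) without the IBH1-Ox library of smaller size factor and 2.76 (adjusted p = 2.67e-05) without the larger one. PAI3 has close copies in PAI1 and PAI2, among which reads may be split. TSB1 had 2440 and 2329 normalized counts in the double line, against 1950 and 1846 in IBH1-Ox. ASA1, the first enzyme of the pathway, was the 1 member listed in the first table, at -0.60 in IBH1-Ox (authors' deposited table, adjusted p = 1.77e-08). In limma-voom 6 of the 13 genes of tryptophan synthesis were higher in the double line and none lower. In that fit 38.1% of all genes passed in either direction. Of 11 genes listed for the side routes through indole acetaldoxime, nitriles and amides 4 were higher and 1 lower, beside 12.7% and 9.78% of all tested genes. In limma-voom 7 were higher and 2 lower, where 38.1% of all genes passed in either direction. A place in this list, as for NIT4, does not show that the enzyme acts on auxin precursors. The nitrilase genes NIT4 and NIT1 were 1.81 higher on the log2 scale and 2.07-fold higher (authors' deposited table, adjusted p = 6.14e-10 and 2.28e-32). CYP71A13 was higher at 1.14, and CYP79B3, which makes indole acetaldoxime, was lower at -0.57 (log2 ratios of the authors' deposited table, adjusted p = 1.77e-05 and 6.83e-07). NIT1 and CYP71A13 have close copies (NIT2 and NIT3, CYP71A12) among which reads may be split. NIT1 stood at 11787 and 11764 normalized counts in the double line, against 5615 and 5748 in IBH1-Ox. SUR1, an enzyme of glucosinolate synthesis whose loss raises auxin, was higher in the double line (0.34) and was listed as lower in IBH1-Ox in the first table (-0.61, authors' deposited table).

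Of 14 genes listed for IAA inactivation 13 were tested. Of these, 8 were lower and 1 higher in the double line (median log2 ratio -0.78, authors' deposited table), beside 9.78% lower and 12.7% higher of all tested genes. A place in this list does not show that the enzyme acts on IAA itself. GH3.3, GH3.9, GH3.6 and GH3.2, of the family that joins auxin to amino acids, were lower in the double line. GH3.3, GH3.9 and GH3.6 had log2 ratios of -2.37, -1.91 and -1.81, and GH3.2 a fold of 0.407 (authors' deposited table, adjusted p = 2.91e-32, 3.74e-32, 5.87e-92 and 3.66e-07). GH3.9 was at 125 and 118 normalized counts in the double line, against 445 and 468 in IBH1-Ox. In the first table GH3.3 (1.38) and GH3.9 (0.66) were listed as higher in IBH1-Ox (authors' deposited table, adjusted p = 3.36e-19 and 1.16e-06). The glucosyltransferase gene UGT74D1, named after its value was seen, was the 1 that rose, by 0.45 on the log2 scale (authors' deposited table, adjusted p = 1.29e-05). The call of AT1G14130, among the 8 that were lower, was lost in limma-voom without the double-line library of larger size factor (adjusted p = 0.0642). Of 8 genes listed for the release of IAA from conjugates MES17 (log2 ratio 0.94) and ILL6 (0.54) were higher (authors' deposited table, adjusted p = 0.000648 and 0.00128). The other 6 did not pass, where 12.7% of all tested genes were higher. A place in this list, as for ILL6, does not show that the enzyme acts on IAA.

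Of 6 auxin receptor genes AFB5 was higher (log2 ratio 0.21, authors' deposited table, adjusted p = 0.0382), and the other 5 did not pass, where 12.7% of all tested genes were higher. AFB5 did not pass in limma-voom without either double-line library (adjusted p = 0.0502 without the larger size factor, 0.17 without the smaller). Of 12 early auxin response genes 4 were lower and none higher (median log2 ratio -0.55, authors' deposited table), beside 9.78% lower and 12.7% higher of all tested genes. In limma-voom 5 of the 9 fitted were lower and none higher, where 38.1% of all genes passed in either direction. IAA29 fell by 2.36, IAA1 by 1.36, HAT2 by 0.69 and IAA2 by 0.43 (authors' deposited table, adjusted p = 4.52e-10, 8.01e-10, 8.48e-07 and 2.15e-05). In the first table IAA29 was listed as higher in IBH1-Ox (1.10), SAUR20 as lower (-1.35) and SAUR15 as lower (a fold of 0.251), all from the authors' deposited table. SAUR20 has close copies among which reads may be split.

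**Figure D5:**
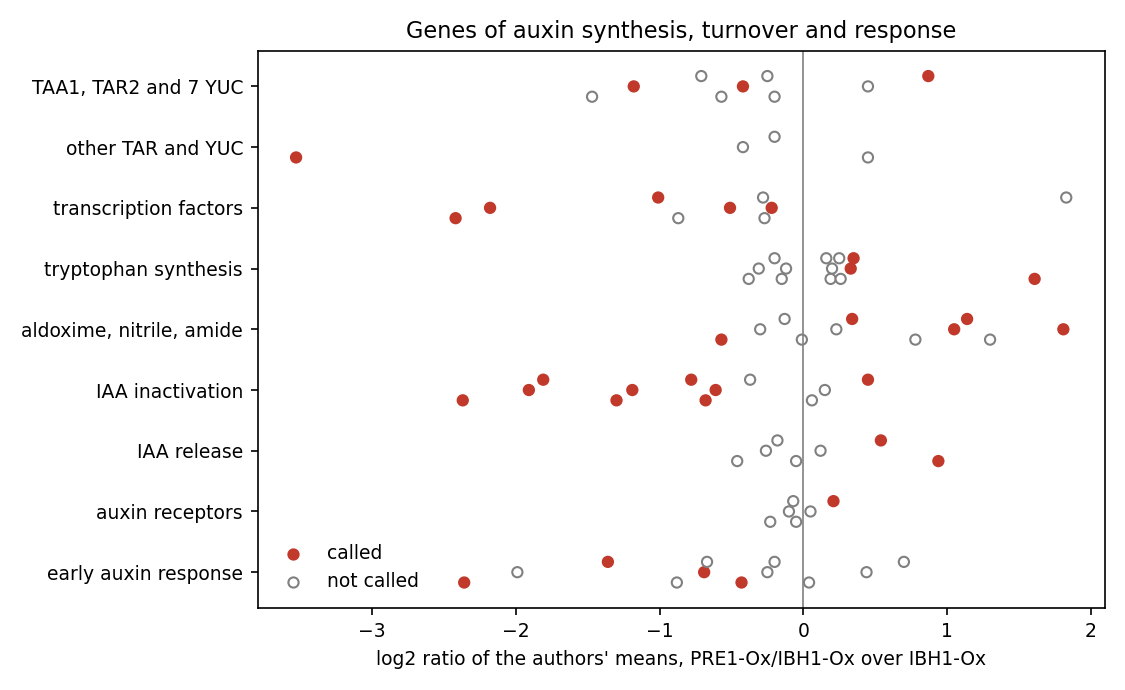
log2 ratio of the authors' group means, double line over IBH1-Ox, for the genes of each list (points, filled where the adjusted p was below 0.05); genes with a mean of 0 in a group are not drawn. The 5 called transcription factors and the 4 called early auxin response genes lie left of 0, and the 3 called genes of tryptophan synthesis lie right of it.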

How the data were processed

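RNA-seq libraries of whole seedlings (TruSeq kit, per the labels' protocols) were processed by the authors with TopHat, DESeq and the TAIR10 build, per the submitters' processing notes. Versions are not given in the sources used here. Per the file headers each deposited table holds group means, a signal made by the authors as gene counts divided by size factors and averaged over libraries. The deposited fold is the ratio of group means, the first table adds its log2 as deposited, while each p-value, raw or adjusted, is that of the authors' test. The deposited log2 column of the second table was not used, and its log2 values were computed from the fold. Entries that name no gene made up 12.5% of the summed signal in the double line and 15.1% in IBH1-Ox, and stayed out of the fits added here.

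The main result is the authors' test at an adjusted p below 0.05. Group means were also split into the whole reads of each library, within rounding at 10 significant digits plus a relative tolerance of 1e-10. Of means above 0, 99.97% (double line) and 99.88% (IBH1-Ox) in the second table and 99.87% (IBH1-Ox) and 99.81% (wild type) in the first split into 1 pair, and IBH1-Ox reads were equal in both tables for 1545 of 1545 genes. The reads were fitted with limma-voom (limma 3.58.1, R 4.3.3), genes of mean 10 or more. Data were simulated at a fixed dispersion of 0.01 with 50 of 19994 genes changed at each fold of 1.5, 2, 4 and 8. There it called 36% of 1.5-fold and 76% of 2-fold changes, and 4.29% of its calls were false. In that setting changes of 1.5-fold and 2-fold were missed in part. In the real fit 38.1% of genes passed, so these rates may not carry over to it. Each library was counted as 1 sample, as labelled. The chi-square between libraries of a group averaged 1.23 (double line, median 0.507) and 2.26 (IBH1-Ox, median 0.733), where sampling noise gives a mean of 1, which does not show separate cultures. Gene models and sequences come from RefSeq (TAIR10.1, Biopython 1.88), matched by locus tag. RefSeq gives no symbol for some listed loci, which are named by locus tag. The kit is not described as marking strand.

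The members and the gene lists were chosen with earlier results of these data known. Named were all members, the other TAR and YUC genes, the transcription factors, and in each other list up to 4 called genes with the largest log2 ratio and those listed in the first table. AT1G14130, UGT74D1 and organ markers such as PYK10 fall outside this rule and were named after their values were seen. Alternatives were other tests, scalings, filters, thresholds and leaving out each library, which for the pathway lists was chosen after seeing the data.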

Additional observations from a re-analysis of the deposited data

How the results depend on the processing

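For the double line against IBH1-Ox the authors' test called 3 members. Limma-voom called 5 with the size factors inferred from the authors' means, 5 with TMM library sizes and 5 with no filter on low counts. In the authors' test an adjusted p below 0.01 left 1 (YUC3). With the authors' p-values adjusted over genes of mean 10 or more there were 3, and with a fold of at least 1.5 there were 2. Leaving out 1 library at a time in limma-voom, where the lone library was assumed to vary like the pair of the other group, gave 2 to 4. None of the 8 members fitted changed sign in these fits, and YUC3 passed in all of them. For IBH1-Ox against wild type the 1 listed member became 0 at an adjusted p below 0.01 and 0 at a fold of at least 2. Of the 81 genes of the pathway lists, 30 of 76 tested were called (39.5%, beside 22.5% of all genes), and 40 of 69 in limma-voom (58%, beside 38.1%). There were 29 at an adjusted p below 0.01, 20 with a fold of at least 1.5, and 31 to 39 in limma-voom without 1 library, a check added after seeing the data. Shares of all genes at the stricter thresholds and without 1 library are not given, for members and lists alike. Counts at those settings therefore show how the calls vary with the setting, and not how they compare with all genes. No paired analysis was possible because the deposited group means carry no replicate numbers, and recovered libraries are told apart by size factor only. YUC1, YUC4 and YUC7 rest on few reads, which limits what could be detected, and wild-type values exist only for genes of the filtered first table.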
